A study of Mus musculus with 6 samples.

Results

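Immediate early transcription factors are encoded by genes that cells switch on within minutes of a growth, stress or inflammatory signal, without first making new protein. The 10 genes described here were chosen by name from the deposited gene expression table of 34745 mouse genes: the FOS family (Fos, Fosb, Fosl1, Fosl2), the JUN family (Jun, Junb, Jund), and Egr1, Ier2 and Atf3. All 10 were found in the table. The rule reads gene names and no measured value, but the list was drawn up with earlier results of these data known. Nr4a1, the gene that was overexpressed, is itself an immediate early gene and encodes an orphan nuclear receptor.

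RNA was sequenced from MLE-12 cells, a mouse lung epithelial line that was derived from lung tumors of mice carrying a viral large T antigen under a surfactant gene promoter. In 3 samples, labelled with NR4A1 overexpression plasmids, the cells received the open reading frame of NR4A1 in the pCMV-SPORT6 vector, and in 3 control samples they received the pCMV-SPORT6 vector alone, both by lipid transfection. All 6 libraries came from this 1 cell line, and no source used here states whether the replicates were separate cultures, so p-values measure only the spread between these samples, which may be technical. The time between transfection and RNA extraction is not given in the sources used here for these libraries, which bears on genes whose RNA rises and falls quickly.

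FOS and JUN proteins carry a basic region that touches DNA and a leucine zipper that joins them in pairs, and the pairs form the AP-1 transcription factor. JUN proteins can pair with each other, whereas FOS proteins need a JUN partner. EGR1 is a zinc finger activator, ATF3 is a stress-induced relative of AP-1 that often represses, and IER2 is a short nuclear protein. Kinases of the ERK, JNK and p38 pathways switch these genes on through factors such as SRF with its ELK partners and CREB. In lung epithelium they are known as early responders to injury, stretch and inflammation.

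Libraries held 15019038 to 17574340 counts, which puts 3 counts at 0.170 to 0.203 CPM (a gene's count scaled to a fixed library total, with TMM factors). Nr4a1 counts were 50660, 60093 and 68555 with the NR4A1 plasmid against 428, 510 and 463 with the empty one, and edgeR's quasi-likelihood test put the log2 fold change at 7.07 (SE 0.136, adjusted p = 2.13e-06). NR4A1 overexpression replicate 2 stood apart from the other libraries: it scored 57.4 on the first principal component against -20.8 to 2.24, and 350 genes exceeded all other libraries by at least 10-fold there, against at most 10 genes in any other library. Of 11 epithelial markers, Nkx2-1 and Sftpc were counted between 946 and 1445 times in every library, while Epcam was counted between 2 and 22 times, Cldn4 at most 1 time, and Cldn7 only in vector control replicate 1. Of the 8 tested epithelial markers, 4 were lower in CPM in every NR4A1 overexpression library than in any vector control (Nkx2-1, Cdh1, Krt8 and Sftpb, against 6.22% of all tested genes), and 0 of 8 passed the threshold, with Nkx2-1 at a log2 fold change of -0.32 (adjusted p = 0.620, edgeR's quasi-likelihood test). The part of these markers in the values that follow was not tested.

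With NR4A1 overexpression, no change in the RNA of the 9 tested factors was detected at this depth and replicate number. None of the 9 tested genes passed the threshold of at least a 2-fold change with an adjusted p under 0.05 (0 of 9, against 0.170% of the 12941 tested genes). The smallest adjusted p among them was 0.809, for Jund (edgeR's quasi-likelihood test). With an unadjusted p under 0.05 the count in this fit was also 0 of 9, where 6.46% of all tested genes were below it. DESeq2, limma-voom and edgeR's exact test also put 0 of them past the threshold. The log2 fold changes ran from -0.32 for Jund to 0.40 for Fosb, with 5 positive and 4 negative values and a median of 0.01, which is also the median over all tested genes. The 95% intervals of all 9 genes lay between a 2-fold fall and a 2-fold rise, as did those of 85.5% of all tested genes. Fosl1, the 10th gene, was removed by the filter on low counts and is described on its own.

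**Figure D1:**
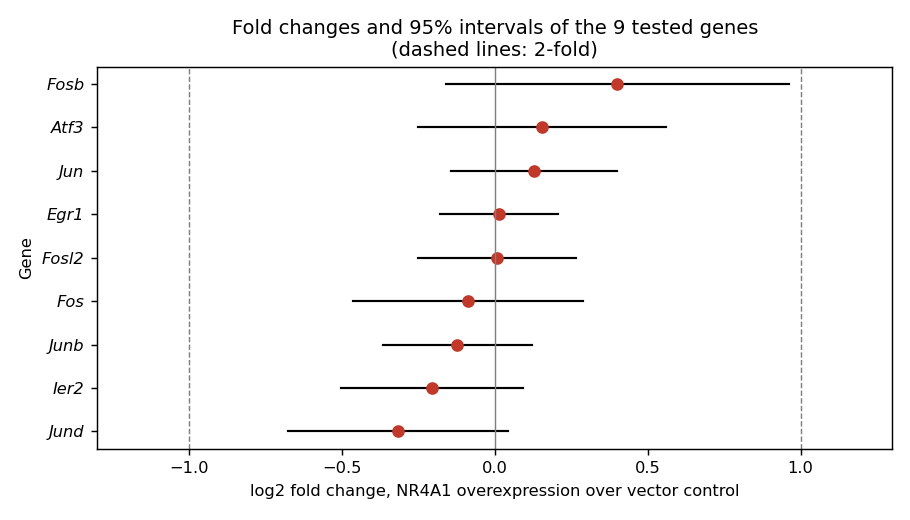
Each point is the log2 fold change of a tested gene, NR4A1 overexpression over vector control with 3 libraries in each group, and each line its 95% interval from edgeR's quasi-likelihood fit. Every interval includes 0 and stays inside the dashed lines at a 2-fold change, the widest being that of Fosb.

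**Figure D2:**
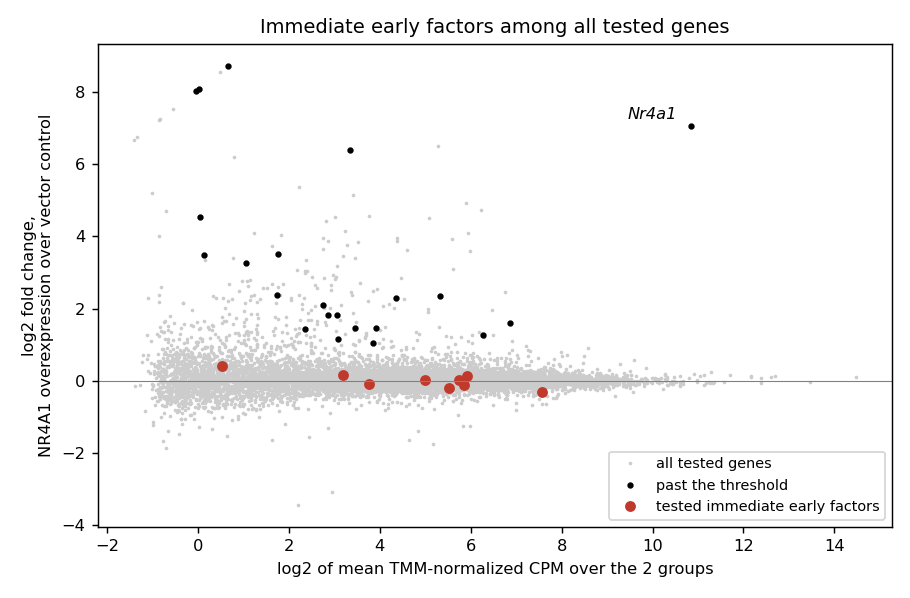
The log2 fold change of every tested gene is drawn against the log2 of its mean TMM-normalized CPM. The 9 tested factors lie in the band around 0, while Nr4a1 lies at 7.07 and all 22 genes past the threshold are above the band.

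The 10 genes share a low number of exons, which the choice did not use. Exons were counted in GENCODE M21, in the transcript with the fewest among those tagged as principal or as consensus coding (CCDS). Where a gene had no such tag, all its transcripts were used. By this count Jun, Junb, Jund and Ier2 have 1 exon each, Egr1 has 2, and Fos, Fosb, Fosl1, Fosl2 and Atf3 have 4. The median of the tested genes was 8 exons and 28.0% had up to 4. The spans in the deposited table ran from 1522 bases for Ier2 to 47744 bases for Atf3, and those of Fosl2 and Atf3 were above the median span of 21991 bases.

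Promoter windows from RefSeq (GRCm38.p6, 250 bases before to 50 after the start) were matched for 7 of the 10 genes, Fos, Fosb, Fosl2, Jun, Junb, Jund and Atf3. For Fosl2 and Atf3 the RefSeq start lies inside the gene as the deposited table places it. The site that NR4A1 binds as a monomer, the NBRE with the letters AAAGGTCA, was found in 0 of these 7 windows on either strand and in 1.51% of all 32851 windows. The shorter core AGGTCA, contained in the NBRE, was also found in 0 of 7, against 16.3% of all windows. The AP-1 site TGANTCA, the full CRE TGACGTCA and the CArG box that SRF binds were found in 0 of 7, against 7.81%, 1.79% and 1.63%, which says only that these letters are not in these windows.

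The core of the CRE, TGACG, which is also contained in the full CRE, was found in 4 of 7 windows against 20.8% of all windows. These stretches are shown because CREB and ATF factors, Atf3 among them, bind such sites, with the core in capitals (as CGTCA where it lies on the opposite strand). They are read along each gene's strand, from chr12:85473812-85473841 for Fos (plus strand), chr7:19310088-19310117 for Fosb (minus), chr8:84978837-84978866 for Junb (minus) and chr1:191183323-191183352 for Atf3 (minus):
Fos: agttccgcccagTGACGtaggaagtccatc
Fosb: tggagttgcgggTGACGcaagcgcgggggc
Junb: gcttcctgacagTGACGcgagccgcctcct
Atf3: ttaatagcattaCGTCAgcctgggattggt

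Sites of the form GCGNGGGCG, which EGR1 binds, were found in the windows of Fosb and Fosl2 (2 of 7, against 5.55% of all windows), where they overlap the GC box GGGCGG. They are shown because Egr1 is itself one of the 10 genes, from chr7:19310076-19310105 for Fosb (minus) and chr5:32136383-32136412 for Fosl2 (plus), with the site in capitals:
Fosb: tgacgcaagcGCGGGGGCGggtcccggagg
Fosl2: ccggctgcgcGCGGGGGCGgaagggcgcgc

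A match is a description of letters, and binding was not measured. Fosb, with both a CRE core and an EGR site, had the highest log2 fold change of the 9 tested factors (0.40, adjusted p = 0.840, edgeR's quasi-likelihood test), and Fosl2, with an EGR site, stood at 0.01. Among the other genes with a CRE core, Fos stood at -0.09, Junb at -0.12 and Atf3 at 0.16. The part of these sites in the fold changes was not tested.

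The JUN family was the most abundant. Jund (ENSMUSG00000071076), which encodes the JUN protein that resting cells keep at the steadiest level, lies on chromosome 8 from 70697739 to 70700616 on the plus strand (GRCm38). It was measured at 149, 188 and 174 CPM in NR4A1 overexpression replicates 1, 2 and 3, and at 179, 258 and 200.1 CPM in vector control replicates 1, 2 and 3. The groups overlapped, since NR4A1 overexpression replicate 2 was above vector control replicate 1, and the single highest library was vector control replicate 2. The log2 fold change was -0.32 (SE 0.153, 95% interval -0.68 to 0.04, unadjusted p = 0.0757, adjusted p = 0.809 by edgeR's quasi-likelihood test). It was -0.15 without vector control replicate 2 and -0.43 without vector control replicate 1 (unadjusted p = 0.0285, adjusted p = 0.925 by the same test). DESeq2 gave Jund an unadjusted p of 0.0486 and an adjusted p of 0.831. With a block for the replicate number, edgeR's quasi-likelihood test put Jund at -0.31 (unadjusted p = 0.00596, adjusted p = 0.360). No source used here says that equal numbers were paired. Over all alternatives its value lay between -0.43 and -0.15.

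Junb (ENSMUSG00000052837), a JUN protein that can act against Jun at AP-1 sites, lies on chromosome 8 from 84976909 to 84978748 on the minus strand. It was at 52.1, 58.3 and 55.2 CPM with NR4A1 overexpression and at 59.8, 66.5 and 54.1 CPM in the vector controls. The groups overlapped, with a log2 fold change of -0.12 (95% interval -0.37 to 0.12). It was -0.046 without vector control replicate 2 and -0.20 without vector control replicate 3. In a later annotation, GENCODE M21, the end of Junb overlaps Prdx2 on the opposite strand, a gene with 3610 to 5039 counts per library, although the positions given in the deposited table do not overlap. Whether counting used the strand is not given in the sources used here, so a contribution of Prdx2 reads to Junb cannot be told apart. Antisense genes also overlap Jun (Junos, 1 to 7 counts per library) and Jund (Gm11175, 4 to 11 counts). In GENCODE M21, Fosl1 overlaps Ccdc85b on the opposite strand (164 to 315 counts per library), although the positions in the deposited table again do not overlap. Atf3 overlaps Gm24748 in that annotation, a gene for which no counts were found.

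Jun (ENSMUSG00000052684) itself, the founding member of the family, lies on chromosome 4 from 95049034 to 95052222. It stood at 62.9, 72.0 and 55.6 CPM with NR4A1 overexpression and at 54.5, 61.5 and 58.5 CPM with the vector. The highest library was from the overexpression group and the lowest from the vector controls, but the ranges overlapped in between. Jun had a log2 fold change of 0.13 (95% interval -0.14 to 0.40), which was 0.027 without NR4A1 overexpression replicate 2 and 0.21 without replicate 3.

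Fos (ENSMUSG00000021250), the classical serum-response gene, lies on chromosome 12 from 85473890 to 85477273. Its counts were 155, 247 and 244 with NR4A1 overexpression and 215, 251 and 253 with the vector. Replicate 1 of the overexpression group was the lowest of the 6, and the other values lay close together on the CPM scale, between 12.4 and 15.0. Fos had a log2 fold change of -0.09 (95% interval -0.46 to 0.29), and without NR4A1 overexpression replicate 1 it was 0.049.

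Fosl2 (ENSMUSG00000029135), which encodes FRA-2, lies on chromosome 5 from 32135801 to 32157842, and had the highest FPKM of the FOS family in every library but NR4A1 overexpression replicate 2, where Fosl1 was above it. Fosl2 was counted 823, 939 and 874 times against 952, 788 and 1045 times, a log2 fold change of 0.01 (95% interval -0.25 to 0.26). Both the lowest and the highest level of Fosl2 were in vector controls.

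Fosb (ENSMUSG00000003545), which is known for its long-lived splice product in stimulated neurons, lies on chromosome 7 from 19302721 to 19310045. Its counts were 25, 25 and 30 in the overexpression libraries and 24, 20 and 20 with the vector. In CPM these were 1.69, 1.49 and 1.73 against 1.39, 1.19 and 1.13, so that Fosb was the 1 tested factor whose groups did not overlap (1 of 9, where 12.9% of all tested genes did not overlap). It was higher with NR4A1, where 6.69% of tested genes lay without overlap, and 0 factors were lower in this way against 6.22%. The log2 fold change of 0.40 (SE 0.238, 95% interval -0.16 to 0.96, adjusted p = 0.840 by edgeR's quasi-likelihood test) did not pass the threshold. Its interval was the widest and its counts were the lowest of the 9.

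Egr1 (ENSMUSG00000038418), a zinc finger factor on chromosome 18 that responds to ERK signaling, was counted 459, 520 and 595 times with NR4A1 overexpression and 527, 531 and 586 times with the vector. On the CPM scale the 6 libraries lay between 30.5 and 34.4, the narrowest spread of the 9 tested factors relative to its level. The log2 fold change was 0.02 with the tightest interval of the 9 tested genes, -0.18 to 0.21.

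Ier2 (ENSMUSG00000053560), on chromosome 8 from 84661331 to 84662852, was at 36.2, 46.1 and 45.8 CPM with NR4A1 overexpression and at 47.1, 54.9 and 45.6 CPM in the vector controls. Vector control replicate 3 fell below both higher overexpression libraries, so the groups overlapped, and the log2 fold change was -0.20 (95% interval -0.50 to 0.09). Atf3 (ENSMUSG00000026628), on chromosome 1 from 191170296 to 191218039, had counts of 172, 147 and 148 against 134, 156 and 157. The level in NR4A1 overexpression replicate 1 was the highest of Atf3, and the log2 fold change was 0.16 (95% interval -0.25 to 0.56), which became -0.00 without that library.

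Per length of gene, the levels fell into steps. In FPKM, the count scaled by gene length and library total as the authors deposited it, Jund stood at 58.7 ± 7.16 with NR4A1 overexpression and 74.3 ± 14.8 in the vector controls (SD, n = 3 each). Junb followed at 29.7 ± 1.77 against 32.9 ± 3.5 FPKM, then Ier2 at 27.8 ± 3.82 against 32.5 ± 3.43 FPKM, and Jun at 19.7 ± 2.51 against 18.3 ± 1.18 FPKM (SD, n = 3 each). Junb was above Ier2 in 4 of 6 libraries and the pair was not told apart beyond its spread, while Jund over Junb, Ier2 over Jun and Jun over Fosl2 held in 6 of 6 libraries with no overlap of the ranges.

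Below Jun came a group of 4 genes at close levels. Fosl2 stood at 4.61 ± 0.237 against 4.66 ± 0.521 FPKM, Egr1 at 4.24 ± 0.282 against 4.25 ± 0.183, Atf3 at 3.73 ± 0.641 against 3.40 ± 0.327, and Fos at 3.43 ± 0.614 against 3.69 ± 0.362 FPKM (SD, n = 3 each). Neighbors within this group overlapped, with Fosl2 above Egr1 in 4 of 6 libraries, Egr1 above Atf3 in 5 of 6, and Atf3 above Fos in 1 of 6. Fosb was at 0.433 ± 0.0351 against 0.332 ± 0.0352 FPKM. Against all tested genes by mean FPKM, Jund lay at the percentile of 95.4 and Junb at 88.2, Fos at 37.2, and Fosb at 7.04.

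**Figure D3:**
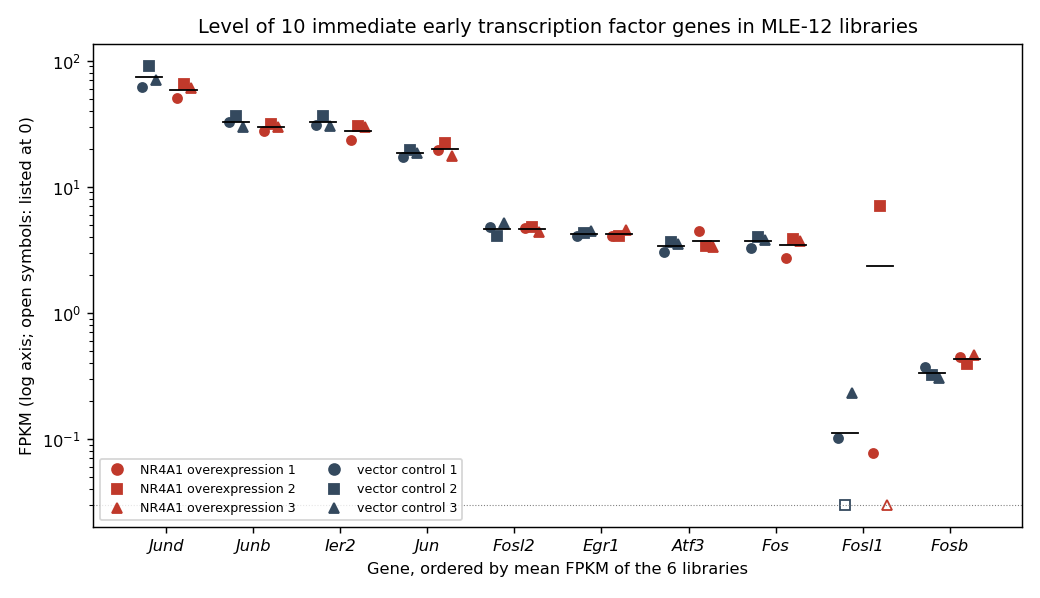
FPKM of the 10 genes on a log axis, with 1 symbol per library, NR4A1 overexpression in red and vector control in dark blue, short lines at the group means, and open symbols for values listed at 0. The 2 groups of a gene lie at close levels from Jund to Fosb, and Fosl1 stands out by the single red square of NR4A1 overexpression replicate 2 at 6.99 FPKM.

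The summed FPKM of the 3 JUN genes was 108 ± 10.3 with NR4A1 overexpression and 126 ± 18.6 in the vector controls (SD, n = 3 each), with Jund giving 54.2% ± 2.17 and 58.9% ± 3.15 of it. The 4 FOS genes summed to 10.8 ± 4.49 against 8.80 ± 0.573 FPKM, and the wide spread of the overexpression group came from replicate 2 at 16.0 FPKM, of which Fosl1 made 6.99. In the 5 other libraries the FOS sum lay between 7.96 and 9.46 FPKM. The ratio of JUN to FOS sums lay between 12.3 and 17.5 in those 5 libraries and was 7.42 in NR4A1 overexpression replicate 2.

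Some factors varied together among libraries. Jund, Junb, Ier2 and Fos, named together after their values were seen, were each lowest in NR4A1 overexpression replicate 1 and each highest in vector control replicate 2. The total count was lowest in NR4A1 overexpression replicate 1 (15019038), but it was highest in vector control replicate 3 (17574340), with 16578881 in vector control replicate 2. Across the 6 libraries, the Pearson r of log2 CPM with Ier2 was 0.91 for Jund, 0.88 for Junb and 0.83 for Fos. It was 0.83 between Jund and Junb, 0.77 between Fos and Jund, and 0.54 between Fos and Junb. These r are given as a description over 6 points that share their libraries and depth. Jund stood at a log2 fold change of -0.23 and Ier2 at -0.10 when NR4A1 overexpression replicate 1 was left out, and at -0.15 and -0.12 when vector control replicate 2 was. With these 4 genes, the r of Jun lay between -0.12 and 0.14 and that of Egr1 between -0.30 and 0.41. Fosb, Fosl2 and Atf3 had negative r with all 4, down to -0.77 for Fosb with Jund, -0.68 for Fosl2 with Junb and -0.64 for Atf3 with Ier2. The 11 epithelial markers summed to their lowest, 812 CPM, and their highest, 1067 CPM, in the same libraries. The part of depth in the shared pattern was not tested. Among 105 tested genes of the related lists described further on, the 3 whose log2 CPM was most like the mean standardized profile of the 9 factors were Ier3 (r = 0.94), Jdp2 (r = 0.90) and Gadd45g (r = 0.86), over the same 6 libraries. This mean profile, which includes the 4 genes above, was highest in vector control replicate 2 (0.350), as they were. It was lowest in vector control replicate 1 (-0.351), with NR4A1 overexpression replicate 1, the lowest library of the 4 genes, close to it at -0.327. Ier3 ranged from 25.9 CPM in vector control replicate 1 to 31.3 CPM in NR4A1 overexpression replicate 2. Gadd45g ranged from 32.9 to 49.98 CPM.

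Fosl1 (ENSMUSG00000024912), on chromosome 19 from 5447703 to 5455945, encodes FRA-1, an AP-1 subunit known from invasive and mesenchymal cells. Its counts were 2, 202 and 0 with NR4A1 overexpression (replicates 1, 2 and 3) and 3, 0 and 7 with the vector. A single library thus held nearly all reads of Fosl1: replicate 2 stood at 12.03 CPM and the highest other library at 0.397 CPM, while the other overexpression libraries lay within the range of the vector controls. The difference between group means of log2(CPM + 0.1) was 1.46, and without replicate 2 it was -0.64. Without the count filter, edgeR's quasi-likelihood test gave Fosl1 an unadjusted p of 0.0588 and an adjusted p of 0.808, and its adjusted p over the alternatives that tested it lay between 0.786 and 0.942.

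Markers of other cell types were raised in the same library. The sum of 8 endothelial markers was 96.2 CPM in NR4A1 overexpression replicate 2 and between 13.3 and 15.8 CPM in the other 5 libraries, with 7 of 8 highest there, and Kdr, Cldn5 and Tie1 had 0 counts in those 5. The sum of 6 smooth muscle markers was 106 CPM against 2.91 to 4.34 CPM, with 6 of 6 highest there and Actg2 at 0 elsewhere. The 8 fibroblast markers summed to 1566 CPM against 918 to 1043 CPM, with 6 of 8 highest there. These 6 stood between 6.76-fold (Pdgfra) and 21.4-fold (Thy1) above the highest other library, whereas Dcn and Lum were at 0.836 and 0.678 of it. Vector control replicate 1 came next for Col1a2, with 284 counts against 4504 in replicate 2 and 10 to 45 in the remaining libraries. The 8 immune markers summed to 10.3 CPM against 7.19 to 10.5 CPM, with 4 of 8 highest there and Ptprc at 0. The 11 epithelial markers summed to 940 CPM there against 812 to 1067 CPM, with 3 of 11 highest there. Krt18 among these was counted 164 times against 2 to 21 times in the other libraries, 7.94-fold above the highest of them. In bulk RNA, more cells of a type and more RNA per cell cannot be told apart, and the part of these cell types in the Fosl1 reads was not tested. Of the 9 other factors, Jun alone was highest in replicate 2, and none was lowest there. Without replicate 2 their median log2 fold change was -0.02, and 0 of 9 passed the threshold, with 1 of 9, Jund at -0.40, at an unadjusted p under 0.05 (adjusted p = 0.606, edgeR's quasi-likelihood test). Of all 13084 genes tested without that library, 625 higher and 446 lower genes were under 0.05.

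**Figure D4:**
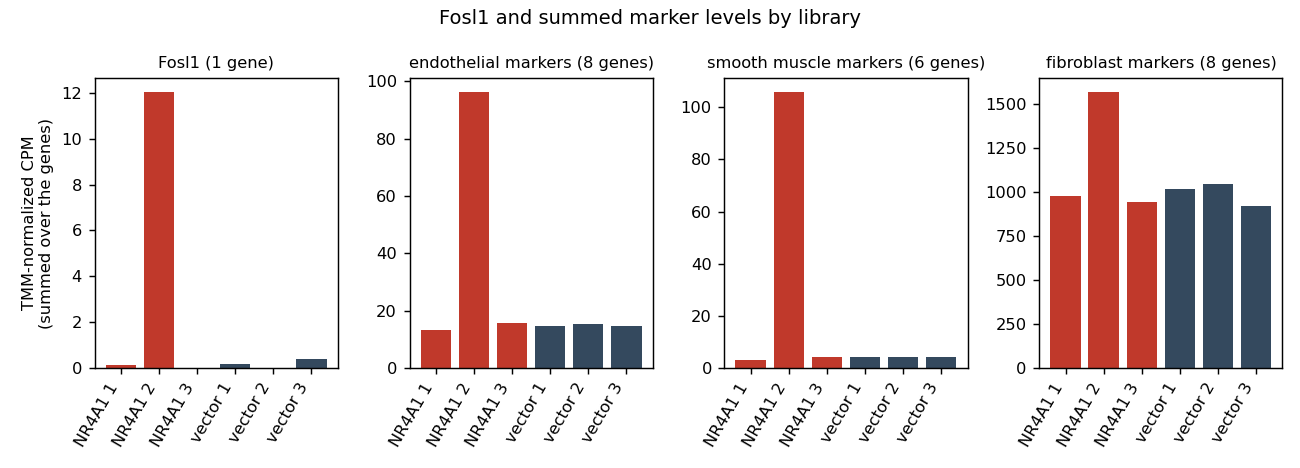
Bars give TMM-normalized CPM in each library for Fosl1 and, summed over the genes of each list, for endothelial, smooth muscle and fibroblast markers, with NR4A1 overexpression in red and vector control in dark blue. NR4A1 overexpression replicate 2 is the highest bar in all 4 panels, at 12.03 CPM for Fosl1.

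The genes around these factors were read from 6 lists. Of 33 other immediate early genes, 28 were tested and 0 passed the threshold. Their median log2 fold change was 0.06, with 3 higher and 1 lower at an unadjusted p under 0.05 (background 4.02% and 2.44%). Plk2, a polo-like kinase, had the smallest p among the higher ones, with a log2 fold change of 0.61 (adjusted p = 0.576) that was 0.36 without NR4A1 overexpression replicate 2, and Sik1, a salt-inducible kinase, among the lower ones, with -0.26 (adjusted p = 0.665, both from edgeR's quasi-likelihood test). Nr4a2, a relative of Nr4a1, had a log2 fold change of 0.21 (95% interval -0.27 to 0.69).

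The 2 largest values of this list rested on NR4A1 overexpression replicate 2. Sgk1, a kinase induced by serum and glucocorticoids, was counted 43, 1861 and 46 times against 71, 30 and 37 times, and its log2 fold change of 3.86 became 0.06 without that library. Ctgf, a secreted matricellular protein, was counted 853, 4376 and 1063 times against 947, 851 and 914 times, and its log2 fold change of 1.27 became 0.18. Arc, an immediate early gene best known from neurons and named here after its values were seen, was below the count filter, with 5, 10 and 14 counts against 0, 0 and 0. Its mean level was at least 3.33-fold higher than 3 counts in each vector control, and without the filter edgeR's quasi-likelihood test put its adjusted p at 0.298.

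Upstream of the factors, 22 of 23 transcription factors and kinases were tested and 0 passed the threshold, with a median log2 fold change of -0.01. Srf, which binds the serum response element, had a log2 fold change of -0.02 (95% interval -0.32 to 0.29) and of -0.12 without NR4A1 overexpression replicate 2. Elk3, an ETS partner of SRF, had the smallest p with a log2 fold change of 0.35 (adjusted p = 0.510, edgeR's quasi-likelihood test), and Mapk14, encoding p38 alpha, the smallest p among lower values with -0.45 (95% interval -1.25 to 0.35). Mapk14 was counted 1706 times in vector control replicate 1 and between 610 and 943 times in the others.

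Of 21 bZIP partners, proteins with the same DNA-binding fold, 18 were tested and 0 passed. Atf1, a CREB relative, was the nearest among higher genes at 0.19 (adjusted p = 0.806), and Cebpb, an inflammatory C/EBP factor, among lower genes at -0.42 (adjusted p = 0.888, both from edgeR's quasi-likelihood test).

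Downstream, 18 of 23 known AP-1 and EGR1 targets were tested and 0 passed the threshold, with a median log2 fold change of 0.14 that was -0.00 without NR4A1 overexpression replicate 2. Cd44, a hyaluronan receptor, came closest. It was counted 1624, 1842 and 1608 times with NR4A1 overexpression and 1228, 1110 and 1188 times with the vector. Every overexpression library was above every vector control, and the log2 fold change was 0.61 (SE 0.0932, adjusted p = 0.0734 by edgeR's quasi-likelihood test) and 0.57 without replicate 2. Pdgfa, a growth factor gene with EGR1 sites, had the smallest p among lower targets with -0.22 (adjusted p = 0.728). Timp1, an inhibitor of metalloproteinases, had a log2 fold change of 2.54 that became -0.40 without replicate 2.

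A list for the integrated stress response, the program in which ATF4 raises Atf3, also held genes of the unfolded protein response. Of its genes, 12 of 12 were tested and 0 passed. The median log2 fold change was -0.12, with 1 higher and 3 lower at an unadjusted p under 0.05 (background 4.02% and 2.44%), and 0 higher and 2 lower without NR4A1 overexpression replicate 2. Herpud1, a component of protein disposal from the endoplasmic reticulum, was at -0.26 (adjusted p = 0.657) and Xbp1, an unfolded protein response factor, at 0.32 (adjusted p = 0.673, both from edgeR's quasi-likelihood test), the latter at 0.20 without that library. Heat shock genes, which report on cell handling, were tested for 7 of 7 genes with 0 past the threshold. The median log2 fold change was -0.03, and -0.20 without NR4A1 overexpression replicate 2. There were 1 positive and 6 negative values, against 6713 and 6228 over all tested genes. Hspa1b had the smallest p at -0.35 (95% interval -0.82 to 0.13), and Hsph1 was the only higher gene, at 0.04.

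**Figure D5:**
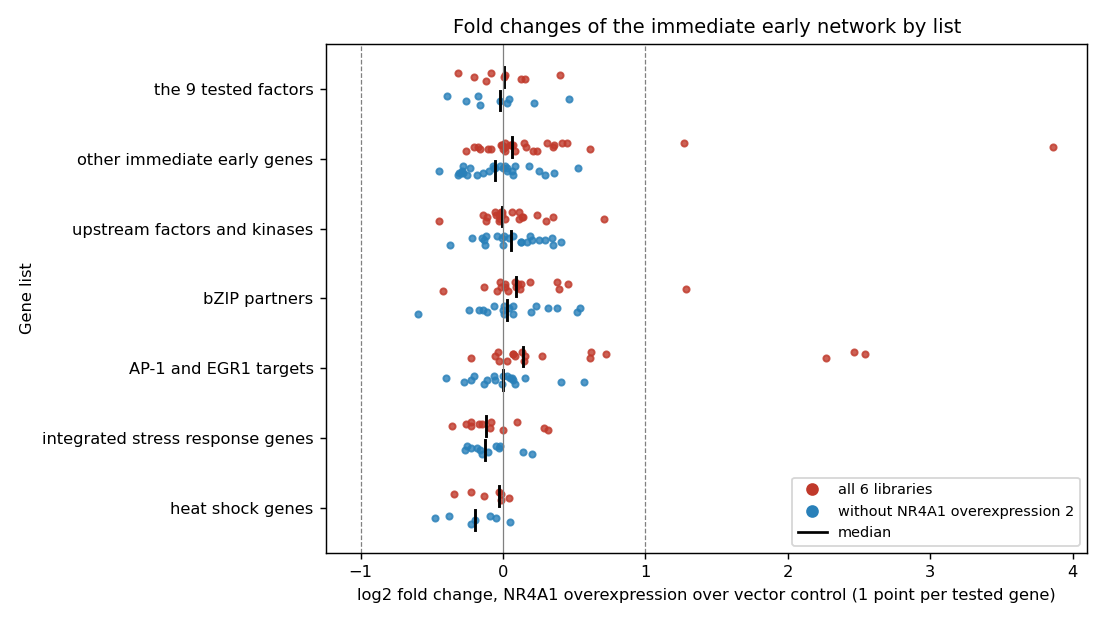
Each point is the log2 fold change of a tested gene of the list named at the left, in red with all 6 libraries and in blue without NR4A1 overexpression replicate 2, with black bars at the medians and dashed lines at a 2-fold change. The red points far to the right, such as Sgk1 at 3.86, have no blue counterpart beyond the dashed lines, and the black bars lie between -0.20 and 0.14.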

How the data were processed

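RNA-seq was analyzed from 3 NR4A1 overexpression and 3 vector control libraries of MLE-12 cells, grouped by the submitters' treatment labels. The authors deposited read counts per gene and library, and FPKM values scaled by gene length and library total. The submitters' processing notes name HISAT2 2.0.4 and GRCm38.p4, and strand-specific libraries were sequenced on a NovaSeq instrument, whereas the counting program and the annotation are not given in the sources used here. Counts were scaled by TMM, filtered with filterByExpr and tested with edgeR 4.0.16 (quasi-likelihood test, Benjamini-Hochberg adjustment over 12941 genes) in R 4.3.3, where a call needed at least a 2-fold change with an adjusted p under 0.05. Standard errors were derived from each gene's F statistic, and 95% intervals from these and the test's degrees of freedom. The depth of 15019038 to 17574340 counts gives limits that cover counting error only. DESeq2 1.42.0 and limma 3.58.1 served as alternatives, together with other scalings, filters, left-out libraries and FPKM on a log2 scale with a pseudocount of 1 or 0.1. The fit was tested on simulated data. Libraries of 1 group differed by 9.36 to 41.8 in chi-square per degree of freedom, beyond sampling noise, so none was counted as a repeat of another, and the highest values (31.0 and 41.8) were those of NR4A1 overexpression replicate 2. Promoters were searched with Python 3.11.15. Of the identifiers shared with GENCODE M21, 80.8% had the same position. The text names all 10 factors, Nr4a1, the gene with the smallest p in each direction in each related list, any listed gene past the threshold and the 3 genes most like the factors' profile. The members and lists were chosen with earlier results of these data known, and Sgk1, Ctgf, Arc, Timp1, Srf and Nr4a2 were named after their values were seen.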

Additional observations from a re-analysis of the deposited data

How the results depend on the processing

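The count of factors past the threshold was 0 in either direction under all alternatives run. Over 160 tested values of the 9 factors under the alternatives, 0 had an adjusted p under 0.05 and the smallest was 0.360, for Jund under the replicate block.

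The log2 fold change reversed under some alternatives for Fosl2, Egr1, Fos and Atf3. Fosl2 was at -0.013 with library totals without TMM factors, -0.0086 with log2(FPKM + 1) with or without its filter, and -0.0094 with log2(FPKM + 0.1), and ranged from -0.082 to 0.080 with each library left out. Egr1 was at -0.0042, -0.0055 and -0.0069 with the same settings, under which the median of all tested genes also moved, from 0.00783 to -0.012 with library totals and to -0.0166 and -0.0193 with the filtered FPKM forms (0.00134 without the FPKM filter). Egr1 ranged from -0.045 to 0.046 with each library left out. With each library left out, Fos ranged from -0.18 to 0.049 and Atf3 from -0.00020 to 0.23. The cause of the reversals with a library left out was not tested.

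Among all genes, 22 passed as higher and 0 as lower. Higher calls were 71 with DESeq2, 67 with edgeR's exact test, 8 with a mean of at least 10 counts, 5 with the replicate block, 7 with log2(FPKM + 1) with or without its filter, 8 with log2(FPKM + 0.1) and 144 with an unadjusted p. With 1 library left out they were 3 to 25, the 25 without NR4A1 overexpression replicate 2. Lower calls were 2 with DESeq2, 1 with the exact test, 17 with an unadjusted p, 1 without the fold threshold, and 0 to 3 with 1 library left out. The other listed genes had 0 calls, except 1 higher with an unadjusted p, which was Sgk1. No source used here says that same-numbered libraries were paired, and over all tested genes their deviations correlated at -0.0111, -0.046 and 0.246. In NR4A1 overexpression replicates 1, 2 and 3 the mean standardized profile of the 9 factors stood at -0.327, 0.274 and 0.0186. In vector control replicates 1, 2 and 3 this profile stood at -0.351, 0.350 and 0.0366, the same order. The replicate block called 0 factors, and its SE for Jund was 0.0690 against 0.153 without it. Whether the libraries were paired was not tested. At 20 to 30 counts, Fosb was measured with the least precision.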
